A study of Mus musculus with 71 samples.

Results

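The 6 AP-1 genes Fos, Fosb, Fosl2, Jun, Junb and Jund were followed through 71 RNA-seq libraries of punched brain tissue from mice trained to self-administer cocaine or saline. They were taken by gene symbol from 37681 genes in each of 6 tables, and each symbol matched 1 gene. The mice were adult male and female wild-type C57BL/6J animals of 8 weeks, labelled C57BL/6, housed singly and fitted with jugular catheters after training for food. Cocaine mice received 0.7 mg/kg per infusion, on a schedule of 1 infusion per response, in daily sessions of 2 h over 21 days, and saline mice received saline in the same way. Tissue was punched from the nucleus accumbens (NAc), the ventral tegmental area (VTA) and the prefrontal cortex (PFC) after 1 or 28 days of abstinence. This gave 12 groups of 6 libraries, with 5 for saline VTA at 28 days. Nothing in the labels says that libraries of a group came from separate animals, so the p-values measure the spread between these libraries.

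AP-1 is a dimeric transcription factor. Fos proteins pair with Jun proteins through leucine zippers and bind short sites in promoters and enhancers, and Jun proteins can also pair with each other. Fos and Junb belong to the immediate early genes, whose transcription starts within minutes of neuronal firing or growth factor signals through SRF, ternary complex factors and CREB, and whose messages are short-lived. Fosb also gives the truncated splice form known as ΔFosB, a long-lived protein that builds up in striatal neurons under repeated drug exposure. Jund is the Jun gene usually described as steadily expressed. The tables count reads per gene, so full-length FosB and ΔFosB messages are summed.

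In the mm9 annotation, Fos lies at chr12:86814840-86818223 on the plus strand, Fosb at chr7:19888070-19895394 on the minus strand and Fosl2 at chr5:32438845-32460204 on the plus strand, each with 4 exonic blocks. Jun lies at chr4:94715725-94718913 and Junb at chr8:87500811-87502617, both on the minus strand, and Jund at chr8:73221638-73224515 on the plus strand. The 3 Jun genes have 1 exonic block each. Exons of Jun share 232 bases with BC042782 on the opposite strand, and those of Jund share 543 bases with Gm11175. The strand used in counting is not given in the sources used here, so reads from those stretches cannot be told apart.

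The stretches just before the start sites are shown because calcium and cAMP signals are known to reach Fos through CRE-like sites, while the Jun promoter is known for a variant of the AP-1 site itself. They are RefSeq sequences of build GRCm38.p6, in which all 6 genes were matched. Capitals mark TGACG, the shared part of CRE sites, in Fos, Fosb and Junb, and TGACATCA in Jun.
Fos, chr12:85473740-85473889, plus strand: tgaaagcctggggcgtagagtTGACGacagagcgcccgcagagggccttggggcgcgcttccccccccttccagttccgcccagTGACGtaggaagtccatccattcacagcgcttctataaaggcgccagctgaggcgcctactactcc
Fosb, chr7:19310046-19310165, minus strand: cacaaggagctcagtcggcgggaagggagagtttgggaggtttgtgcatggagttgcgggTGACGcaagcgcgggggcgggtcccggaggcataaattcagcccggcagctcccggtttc
Junb, chr8:84978749-84978868, minus strand: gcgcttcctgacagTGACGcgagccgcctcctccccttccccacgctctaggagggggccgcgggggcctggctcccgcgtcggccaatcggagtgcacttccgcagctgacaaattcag
Jun, chr4:95052223-95052342, minus strand: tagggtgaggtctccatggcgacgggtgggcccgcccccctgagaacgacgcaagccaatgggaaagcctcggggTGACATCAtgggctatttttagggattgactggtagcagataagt

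Motifs were searched on both strands from 250 bases before to 50 bases after the start. Counted from the start site, TGACG began at -129 and -66 in Fos, at -60 in Fosb and at -106 in Junb, and 20.8% of the 32851 RefSeq promoter windows hold it. The second Fos site continues as TGACGT, which 7.51% of windows hold and which contains the shorter motif. TGACATCA began at -45 in Jun and is in 3.62% of windows. The full CRE TGACGTCA, in 1.79% of windows, and the AP-1 site TGAGTCA, in 5.2%, were in none of the 6 windows, and the windows of Fosl2 and Jund held neither TGACG nor TGACATCA. These matches describe letters and do not show which sites are used.

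Libraries held 20971967 to 49700932 reads on genes. The marker lists followed the labels: medians of the summed striatal list were 2289 to 3136 RPKM (reads scaled by gene length and library size) in the NAc groups and 107.4 to 169.9 in the others, the midbrain dopamine list was highest in the VTA and the cortical excitatory list in the PFC. Saline PFC library 4 at 28 days stood apart, with 1428 RPKM of the striatal list against 103.2 to 138.2 RPKM in the other libraries of its group. Levels below are RPKM, computed from the counts with TMM scaling in 4 tables and as deposited in the VTA and PFC tables at 1 day. A gene was called when its Benjamini-Hochberg adjusted p over all tested genes was under 0.05, by edgeR on counts or limma on log2(RPKM + 0.1).

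Fos was the member with the largest difference between cocaine and saline at 1 day, in each of the 3 regions, and in none of them did it pass the adjustment over all genes. In the NAc at 1 day, Fos was 1.20 RPKM at the lowest, 1.37 at the median and 1.77 at the highest saline library, and 1.43, 2.27 and 5.59 RPKM in cocaine libraries. Of the 6 cocaine libraries, 5 lay above the highest saline library, and 1 lay among the saline values. The log2 fold change was 0.95 (SE 0.27), a 1.93-fold difference, with adjusted p = 0.950 by edgeR and 0.155 by DESeq2. The exact permutation test of this single gene, two-sided over the 924 divisions of the libraries, gave p = 0.00649, where the smallest p possible is 0.00216. Cocaine library 6 held the highest Fos and Fosl2 levels and also the highest cortical marker sum of the table, 300.2 RPKM against 9.33 to 180.3 RPKM in the other cocaine libraries and 9.45 to 221.6 RPKM in saline libraries. Without it the log2 fold change of Fos was 0.60, and with the cortical marker score as a covariate it was 0.86 (adjusted p = 0.562 by edgeR).

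In the PFC at 1 day, Fos was 1.95, 2.22 and 3.02 RPKM at the lowest, median and highest saline library and 2.46, 3.58 and 8.04 RPKM in cocaine libraries. Each of the 6 cocaine libraries exceeded the saline mean, and 4 exceeded the highest saline library. The log2 fold change was 0.74 (SE 0.24; adjusted p = 0.918 by limma), and the exact permutation p was 0.0130. Cocaine libraries 2 and 1 were the highest, at 8.04 and 5.26 RPKM.

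In the VTA at 1 day, Fos was 1.05, 1.47 and 2.36 RPKM at the lowest, median and highest saline library and 0.867, 3.30 and 8.99 RPKM in cocaine libraries. The cocaine group thus spread on both sides of the saline group: 4 libraries lay above all saline libraries and 1 lay below all of them. The log2 fold change of 1.07 (SE 0.47) had adjusted p = 0.307 by limma and an exact permutation p of 0.0758. Fosl2, which encodes Fra-2, followed the same libraries, with 0.579, 0.754 and 1.12 RPKM after saline and 0.816, 1.54 and 2.94 RPKM after cocaine. Its log2 fold change was 0.90 (SE 0.30; adjusted p = 0.210 by limma; exact permutation p = 0.0195), and 4 cocaine libraries lay above all saline libraries.

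Markers of cortical excitatory neurons moved with these values in the VTA at 1 day. The summed level of the 8 markers was 9.50 to 37.7 RPKM in saline and 16.0 to 83.0 RPKM in cocaine libraries, with 4 and 5 of the 8 at a group mean of 0.5 RPKM or more and none at 0. Cocaine libraries 3 and 6, with 8.99 and 7.32 RPKM of Fos, held the highest cortical sums, 76.2 and 83.0 RPKM. Between groups, the dopamine neuron list ran the other way, at 926.8 to 2063 RPKM in saline and 543.8 to 1290 RPKM in cocaine libraries. So did the microglia list, at 133.9 to 213.5 RPKM and 87.6 to 158.2 RPKM. Library 3 held the lowest dopamine sum of the cocaine libraries, 543.8 RPKM. Library 6 did not follow, with 1053 RPKM of the dopamine list and the highest microglia sum of the cocaine libraries, 158.2 RPKM. The endothelial list was 58.2 to 78.6 RPKM in saline and 59.8 to 116.3 RPKM in cocaine libraries, and libraries 6 and 3 again held the highest sums, 116.3 and 85.2 RPKM. With the cortical marker score as a covariate, the log2 fold change was 0.06 (SE 0.53) for Fos and 0.18 (SE 0.30) for Fosl2. Without cocaine libraries 3 and 6 it was 0.43 (SE 0.35) for Fos and 0.49 (SE 0.22) for Fosl2. The covariate acted on the whole table. With it, 0 of 15042 tested genes were called and 1104 had an unadjusted p under 0.05 by limma, against 28 and 2323 without it. The covariate fit and the fit without libraries 3 and 6 were chosen after the data were seen. The part of the other marker lists in the Fos values was not tested. In punched tissue, a different share of cells and a different amount of RNA per cell cannot be told apart.

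**Figure D1:**
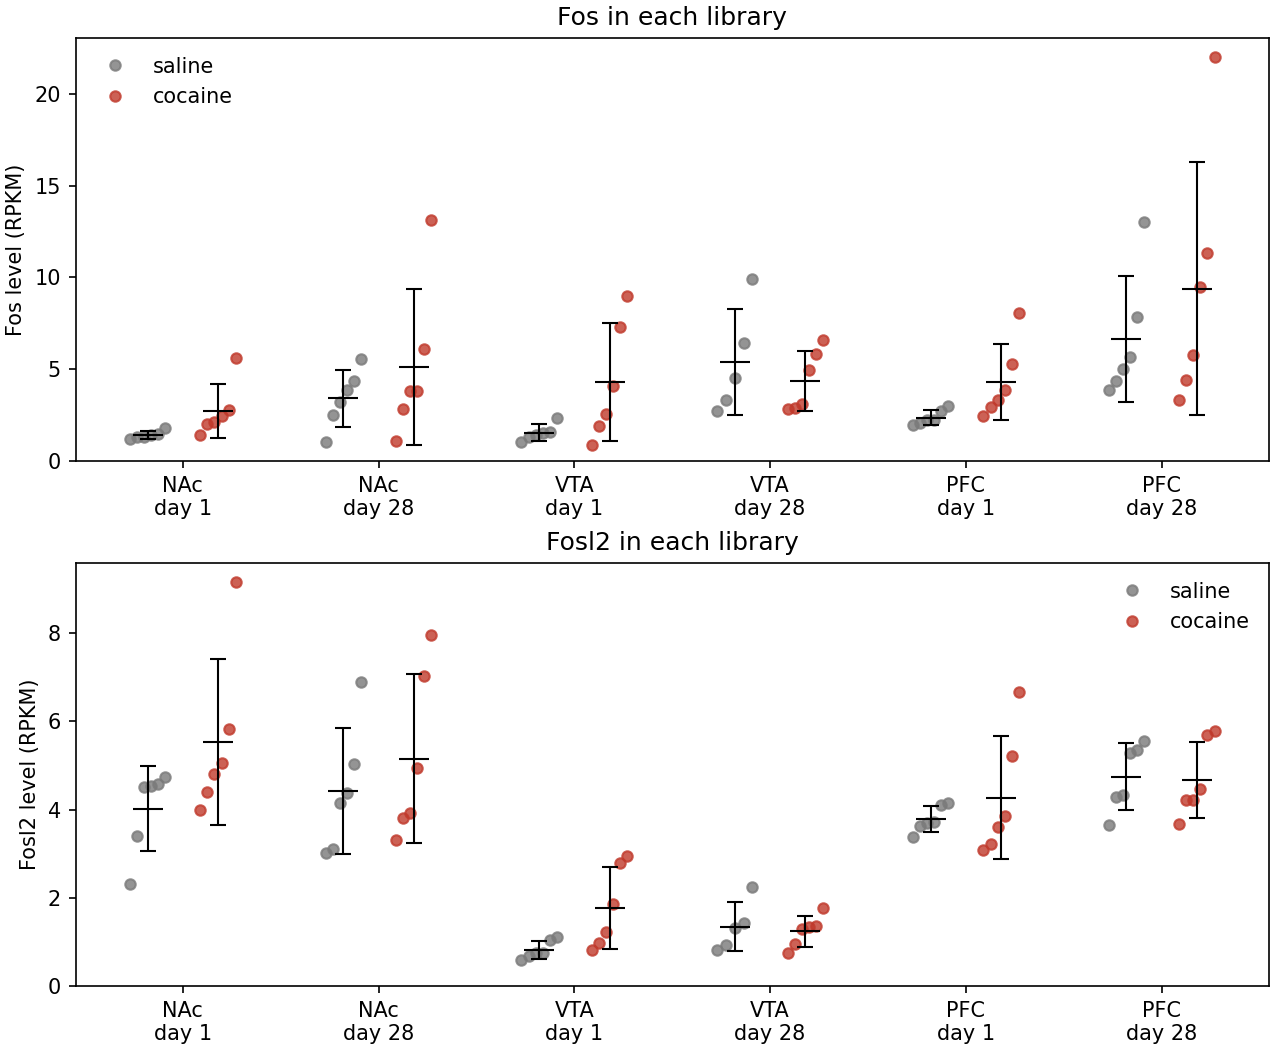
Levels of Fos (upper panel) and Fosl2 (lower panel) in RPKM, in every saline (grey) and cocaine (red) library of each region and time point; black bars give the mean and SD of each group. At 1 day, Fos reaches 1.77 RPKM in saline and 5.59 RPKM in cocaine libraries of the NAc; the VTA reaches 2.36 against 8.99 RPKM and the PFC 3.02 against 8.04 RPKM. The lowest VTA cocaine library lies below all saline libraries, and at 28 days both groups spread widely.

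At 28 days Fos varied in both groups and the groups overlapped throughout. NAc saline libraries ran from 1.03 over a median of 3.56 to 5.54 RPKM and cocaine libraries from 1.11 over 3.79 to 13.1 RPKM, with a log2 fold change of 0.61 (SE 0.47; adjusted p = 0.847 by edgeR). Without cocaine library 6, the one at 13.1 RPKM, the fold change was 0.05 on the log2 scale. PFC saline libraries ran from 3.89 over 5.34 to 13.0 RPKM and cocaine libraries from 3.33 over 7.64 to 22.0 RPKM, a log2 fold change of 0.51 (SE 0.41; adjusted p = 0.878 by edgeR). Without cocaine library 6 of that table, at 22.0 RPKM, it was 0.06, again the lowest of 12 such fits, where the highest was 0.81. In the VTA, the 5 saline libraries held 2.74, 3.34, 4.50, 6.43 and 9.90 RPKM, and the cocaine libraries ran from 2.85 over 4.04 to 6.60 RPKM. The log2 fold change there was -0.31 (SE 0.34; adjusted p = 0.697 by edgeR), and 0.04 without saline library 4, the one at 9.90 RPKM. That library also held the highest cortical marker sum of its table, 92.8 RPKM, where the other saline libraries held 14.2 to 61.0 RPKM and the cocaine libraries 13.6 to 30.1 RPKM, and the part of these markers in the Fos value was not tested.

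The remaining members differed less. Fosb had log2 fold changes between 0.12 and 0.44 in the 5 tables where it was tested, all positive, with adjusted p from 0.553 to 1.00 by edgeR or limma. In the NAc, where ΔFosB is best known, Fosb was 1.81, 2.25 and 2.62 RPKM in saline and 1.85, 2.38 and 2.90 RPKM in cocaine libraries at 1 day (lowest, median, highest). At 28 days the NAc values were 2.85, 3.44 and 4.14 RPKM after saline and 3.26, 3.59 and 4.91 RPKM after cocaine. The groups overlapped at both times, with exact permutation p of 0.392 and 0.312. Fosb and Junb did not reach the mean of 0.5 RPKM required in the VTA table at 1 day. Tested there without that filter, their log2 fold changes were 0.46 (SE 0.29) and 0.27 (SE 0.32), with adjusted p of 0.574 and 0.757 by limma.

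Fosl2 in the NAc at 1 day was 2.32, 4.53 and 4.74 RPKM in saline and 3.98, 4.93 and 9.17 RPKM in cocaine libraries. Its log2 fold change was 0.47 (SE 0.21; adjusted p = 1.00 by edgeR; exact permutation p = 0.0909), and it was 0.26 without cocaine library 6. In the remaining 4 tables, the log2 fold change of Fosl2 lay between -0.12 and 0.23. Jun, which encodes c-Jun, the best known partner of Fos, had log2 fold changes between 0.03 and 0.24 in all 6 tables. Junb lay between -0.12 and 0.25 in the 5 tables where it was tested, and Jund between -0.21 and 0.03 in all 6.

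The values of the Jun genes by library show how close the groups were. In the NAc at 1 day, Jun was 3.08, 4.22 and 4.75 RPKM in saline and 3.70, 4.19 and 5.82 RPKM in cocaine libraries (lowest, median, highest), and the cocaine median lay just under the saline median. Jund in the same libraries was 3.26, 4.14 and 4.92 RPKM after saline and 3.10, 4.00 and 4.25 RPKM after cocaine. Junb, whose protein often acts as a weaker activator than c-Jun, ran from 0.712 to 4.22 RPKM among saline libraries, and all cocaine libraries, at 1.45 to 2.89 RPKM, lay inside that range. In the PFC at 1 day, Junb was 0.757, 1.11 and 2.31 RPKM after saline and 1.17, 1.42 and 2.56 RPKM after cocaine. At 28 days its highest level in the PFC was 30.4 RPKM among saline and 47.4 RPKM among cocaine libraries, while the medians were 24.1 and 24.9 RPKM.

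The balance within the Fos family at 1 day is given as shares, without a test. In the PFC, Fos made up 30.5% ± 3.32 of the summed RPKM of Fos, Fosb and Fosl2 in saline and 39.8% ± 4.02 in cocaine libraries (SD, n = 6), and in the NAc 18.5% ± 1.69 and 24.4% ± 5.37. In the VTA the shares were 60.8% ± 3.91 and 63.6% ± 9.04, a difference below the SD of either group, and Fosl2 was also higher in cocaine libraries there. In the Jun family, Jund made up 41.1% ± 3.06 of the summed RPKM of Jun, Junb and Jund in saline and 38.2% ± 3.45 in cocaine libraries of the NAc, and no share of a Jun gene in any region at 1 day differed by more than 1 SD of the wider group.

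**Figure D2:**
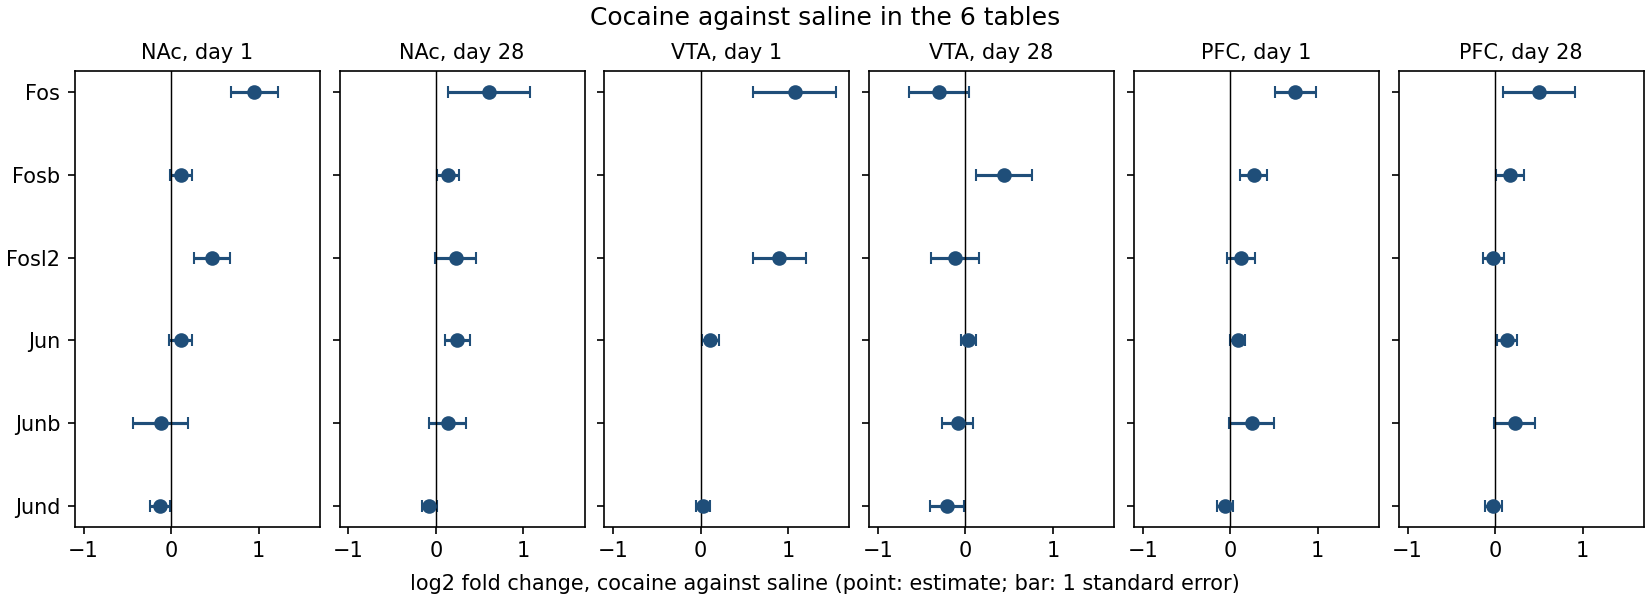
Log2 fold change of cocaine against saline for each member in the 6 tables, with bars of 1 standard error. Fos at 1 day stands at 0.95 in the NAc, 1.07 in the VTA and 0.74 in the PFC and Fosl2 in the VTA at 0.90, while those of Jund lie between -0.21 and 0.03; Fosb and Junb were not tested in the VTA at 1 day.

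Counted over all members, 0 of 6 were called in each of the NAc, VTA and PFC tables (0 of 4 in the VTA at 1 day), by edgeR or limma and also by DESeq2 on counts and edgeR on recovered reads. At an unadjusted p under 0.05, Fos and Fosl2 were higher after cocaine in the NAc and VTA at 1 day, Fos was higher in the PFC at 1 day, and 0 members were past that threshold at 28 days in any region. The background at adjusted p under 0.05 was 0.0126% of genes in the NAc, 0.186% in the VTA and 0.00693% in the PFC at 1 day, and 0.0% in each region at 28 days. At unadjusted p under 0.05 it was 4.01% in the NAc, 15.4% in the VTA and 4.15% in the PFC at 1 day, and 6.76%, 11.5% and 5.66% at 28 days. Of the 36 exact permutation tests, one per member and table, 3 were under 0.05: Fos in the NAc and PFC and Fosl2 in the VTA, all at 1 day. The cocaine mean was above the saline mean on the log2 scale in 27 of these 36 comparisons. Members of a table share its libraries, so the comparisons are not independent. The share of all tested genes with a higher cocaine mean was not counted.

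The treatment by time interaction asks whether the cocaine effect in the NAc differed between 28 days and 1 day, in 1 edgeR model of 24 libraries. It called 0 of 6 members, and 0 were past an unadjusted p of 0.05, by edgeR or DESeq2, against a background of 0.0181% of genes. For Fos the interaction was -0.34 on the log2 scale (SE 0.60; adjusted p = 0.999 by edgeR), so a change of the cocaine effect between the times was not detectable with this spread.

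Genes around AP-1 were counted in fixed lists, chosen with earlier results of these data known. Among 19 other immediate early genes, which include transcription factors of the Egr and Nr4a families and the synaptic gene Arc, 0 were called by edgeR or limma, and 1, Nr4a3 in the NAc at 1 day, by DESeq2. At an unadjusted p under 0.05, 7 of 19 tested were higher in the NAc at 1 day, 8 of 16 in the VTA at 1 day and 4 of 19 in the PFC at 1 day, and 0 were lower in these 3 tables. Over all tested genes, 4.01%, 15.4% and 4.15% were past that threshold in either direction. The median log2 fold change of the listed genes was 0.34, 0.37 and 0.14 in that order, against medians of 0.00, 0.03 and -0.01 over all tested genes. The smallest p belonged to Nr4a3 in the NAc (0.82, SE 0.18, adjusted p = 0.511 by edgeR) and the VTA (0.96, SE 0.24, adjusted p = 0.127 by limma) and to Egr2 in the PFC (0.93, SE 0.34, adjusted p = 0.918 by limma). At 28 days, 0 of 19 in the NAc were past an unadjusted p of 0.05, 2 of 18 in the VTA were lower and 1 of 19 in the PFC was higher. Over all tested genes, 6.76%, 11.5% and 5.66% were past it in the same order.

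Other lists hold genes upstream of or beside AP-1. Their counts stand beside 4.01% to 15.4% of all tested genes per table with an unadjusted p under 0.05. Of 6 SRF and ternary complex factor genes tested, 0 were called by edgeR or limma in any table, 3 table values were higher and 2 lower at an unadjusted p under 0.05, and DESeq2 called 1, Elk4 in the VTA at 28 days. The SRF coactivator gene Mkl2 had the smallest p of the list, at 0.31 (SE 0.07; adjusted p = 0.0931 by limma) in the VTA at 1 day, and Elk4 was at -0.41 (SE 0.10; adjusted p = 0.389 by edgeR) in the VTA at 28 days. Of 11 ERK and JNK pathway kinases, 0 were called by any of the tools, 1 table value was higher and 4 were lower at an unadjusted p under 0.05, and the medians lay between -0.04 and 0.03. Of 6 mRNA decay factors, such as Zfp36, which binds AU-rich elements, 0 were called by any of the tools and 0 had an unadjusted p under 0.05 in any table. Among 13 further AP-1 genes and dimer partners, of which 9 to 11 were tested per table, 0 were called by any of the tools and 3 table values were higher at an unadjusted p under 0.05. Atf7 had the smallest p of that list, at 0.41 (SE 0.12; adjusted p = 0.950 by edgeR) in the NAc at 1 day.

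Among 8 genes linked to FosB in the accumbens, 1 was called. Camk2a, the calcium/calmodulin-dependent kinase of excitatory synapses, rose in the VTA at 1 day by 0.59 on the log2 scale (SE 0.09; adjusted p = 0.0328 by limma) in the table where cortical marker sums were higher after cocaine. Of 12 glucocorticoid-responsive genes, which rise with stress hormone, 2 were called in the NAc and 1 each in the VTA and PFC at 1 day. All were higher after cocaine, where 0.0126%, 0.186% and 0.00693% of all tested genes were called in that order. No other gene was called by edgeR or limma in the NAc or PFC at 1 day. The list was chosen with earlier results of these data known, so these counts are not an independent test. DESeq2 called 3 genes of the list in the NAc at 1 day, with Zbtb16 as the third. Plin4, a lipid droplet protein, rose by 2.57 (SE 0.34; adjusted p = 0.0200 by edgeR) in the NAc, by 2.14 (SE 0.32; adjusted p = 0.0316 by limma) in the VTA and by 2.17 (SE 0.25; adjusted p = 0.0117 by limma) in the PFC on the log2 scale. Hif3a, a hypoxia-inducible factor subunit, rose in the NAc by 1.08 (SE 0.13; adjusted p = 0.0122 by edgeR). In the same list at 28 days, 0 genes were called in any region. There 11, 11 and 10 of 12 were lower after cocaine in the NAc, VTA and PFC, and 1, 1 and 2 were higher. At an unadjusted p under 0.05, 1, 3 and 1 were lower and 0, 0 and 1 higher, where 6.76%, 11.5% and 5.66% of all tested genes passed in either direction. The part of these genes in the Fos values was not tested.

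Within groups, the members did not vary alike. In the 6 tables, the within-group SD of log2 Fos was 0.45 to 0.95, between the 95.93 and 99.8 percentiles of all tested genes, whose median SD was 0.14 to 0.20. Fosl2, at 0.25 to 0.57, lay between the 84.41 and 98.09 percentiles. Jund, at 0.13 to 0.35, lay between the 27.94 and 84.57 percentiles. The coefficient of variation of Fos among cocaine libraries was 54.2% in the NAc, 75.2% in the VTA and 47.9% in the PFC at 1 day, against 14.3%, 28.9% and 17.4% among saline libraries. At 28 days it was 82.7%, 37.7% and 73.3% among cocaine and 45.5%, 53.8% and 51.6% among saline libraries in that order. The VTA thus went the other way at 28 days.

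Members were compared library by library after removing group means, as Pearson's r within each table, for 15 pairs of genes and 6 tables. Of the 90 correlations, 79 were above 0, and 32 had a permutation p under 0.05, all of them positive. Fos and Fosl2 were correlated in each table, with r from 0.67 to 0.90 and a median of 0.79, over 11 or 12 libraries. In the VTA at 1 day r was 0.90 (Spearman's rho 0.87; permutation p = 0.00167 and 0.00600), and 0.84 without the 2 libraries farthest from the Fos median. In the NAc at 1 day r was 0.74 (rho 0.66; permutation p = 0.00648 and 0.0158) but 0.39 without the 2 farthest libraries, so it rested on them. Fos and Fosb had r from 0.78 to 0.85 in 5 tables and 0.06 in the NAc at 1 day. Fos and Jund had r between -0.08 and 0.49, with a median of 0.15. The points of these correlations share each library's composition and depth, and the p-values are not adjusted for the 90 relations.

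**Figure D3:**
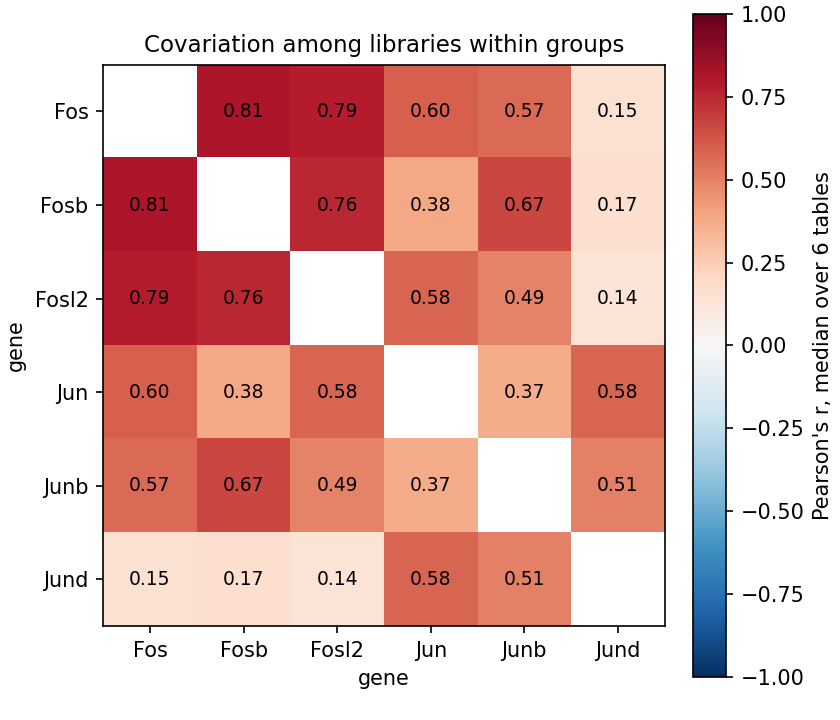
Pearson's r between members over the libraries of a table after removal of group means, given as the median over 6 tables. Fos, Fosb and Fosl2 form the block of highest values, 0.76 to 0.81, and Jund stands at 0.14 to 0.17 with the Fos family but at 0.58 with Jun and 0.51 with Junb.

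Genes tested in all 6 tables, 13816 or 13817 for each member, were ranked by their median r with that member over the tables. Fosb and Junb, which missed the filter in the VTA at 1 day, were therefore not among the ranked genes. In this ranking, those most like Fos were Nr4a1 (0.85), the ERK phosphatase Dusp1 (0.83), Egr1 (0.82), Arc (0.82) and Fosl2 (0.79). Outside it, the median r of Fos with Fosb was 0.81. The top 3 for Fosb were Fos (0.81), Fosl2 (0.76) and Arc (0.75), and for Fosl2 they were Nr4a3 (0.81), Fos (0.79) and Klf4 (0.77). Junb was nearest to Sik1 (0.83), Nab2 (0.78) and Nr4a1 (0.77), of which Nab2 is a corepressor of Egr factors. Jun was nearest to Ier2 (0.76), Cys1 (0.75) and Adamts2 (0.73). For Jund the top genes were Pcsk1n (0.89), Akt1s1 (0.88) and Rnf126 (0.85), none of them an immediate early gene, with exons of 57.3%, 60.3% and 62.4% GC beside 62.7% for Jund. Among the genes ranked for Fos, Jun took place 39 and Jund place 3222.

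Saline libraries of 28 days, tested in 1 edgeR fit, gave the levels across regions. Fosb was 2.85, 3.44 and 4.14 RPKM in the NAc and 2.12, 2.51 and 3.12 RPKM in the PFC (lowest, median, highest), and the 5 VTA libraries held 0.124, 0.167, 0.302, 0.341 and 0.392 RPKM. Every NAc and PFC library thus lay above every VTA library. Fosb was higher in the NAc than in the VTA by 3.79 on the log2 scale (SE 0.24; adjusted p = 3.09e-10), a 13.8-fold difference, and higher in the PFC than in the VTA by 3.41 (SE 0.23; adjusted p = 1.1e-09 by edgeR). Fosl2 and Junb had the same order of VTA below both forebrain regions. Fosl2 was 0.821 to 2.24 RPKM in the VTA, 3.01 to 6.89 RPKM in the NAc and 3.64 to 5.56 RPKM in the PFC. Junb was 2.94 to 6.27 RPKM in the VTA, 20.03 to 37.3 RPKM in the NAc and 15.1 to 30.4 RPKM in the PFC, so no VTA library reached a forebrain library for either gene. How many of all genes separate the regions as Fosb, Fosl2 and Junb do was not counted. Fosl2 was 3.53-fold higher in the NAc and 3.90-fold in the PFC, and Junb 6.43-fold and 5.43-fold, with adjusted p of 9.09e-09 to 5.37e-06 over NAc against VTA and 3.04e-08 to 2.68e-06 over PFC against VTA by edgeR.

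Fos and Jun did not follow that order. Jun was lower in the NAc than in the VTA by 0.61 and lower than in the PFC by 0.70 on the log2 scale (adjusted p = 0.000384 and 0.000136 by edgeR), at means of 8.23, 13.5 and 13.0 RPKM in the NAc, VTA and PFC. Fos was lower in the NAc than in the PFC by 1.00 (SE 0.38; adjusted p = 0.0459 by edgeR), and this call was lost without PFC library 3, at 13.0 RPKM (log2 difference -0.69, adjusted p = 0.154 by edgeR), and without any of 9 other libraries. It was called in the saline libraries of 1 day (-0.77; adjusted p = 0.000605 by edgeR). Jund was 34.4, 38.5 and 35.1 RPKM on average in the NAc, VTA and PFC, and its log2 differences lay between -0.08 and 0.03, within their standard errors of 0.17 to 0.18. In all, 4 of 6 members were called between NAc and VTA, 2 between NAc and PFC and 3 between PFC and VTA, where 62.5%, 40.7% and 57.8% of all tested genes were called. With the number of the table column as a block, chosen after the data were seen, 3 members were called between NAc and PFC. Fosb joined, higher in the NAc by 0.38 (SE 0.12; adjusted p = 0.0210 by edgeR), and Fos was at -1.07 (SE 0.27; adjusted p = 0.00624 by edgeR). The share of all tested genes called with that block is not given here. Fosb was higher in the NAc than in the same-numbered PFC library for 6 of 6 numbers, at 1.24 to 1.49 times its level, and Fos was lower for 6 of 6. Leaving out saline PFC library 4, which held striatal markers, changed none of these 3 counts.

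**Figure D4:**
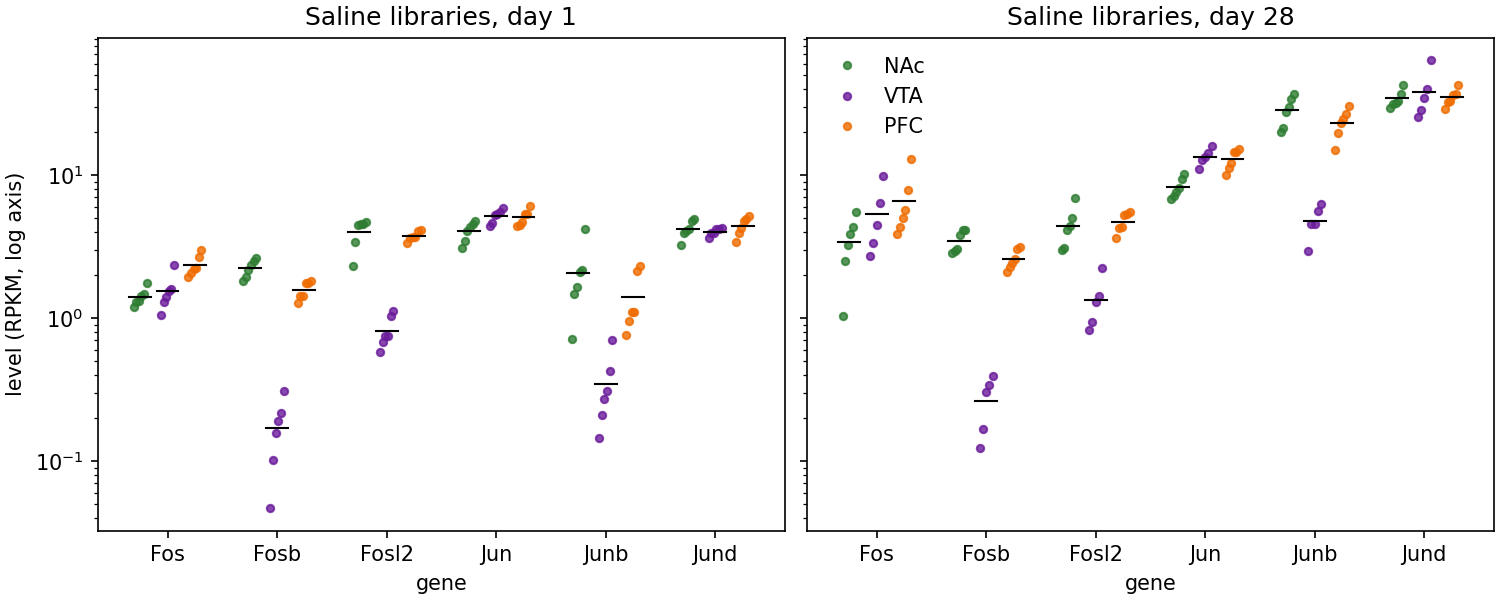
Levels of the 6 members in RPKM, on a log axis, in the saline libraries of the NAc (green), VTA (purple) and PFC (orange) at 1 day (left) and 28 days (right), with group means as black lines. Fosb, Fosl2 and Junb lie lowest in the VTA at both times, Jund is level across regions, and Junb and Jund lie higher at 28 days than at 1 day in every region.

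The make-up of the Fos family per length therefore differed between regions. In saline libraries at 28 days, Fos made up 76.1% ± 3.36 (SD, n = 5) of the summed RPKM of the 3 Fos genes in the VTA, 45.6% ± 10.2 (n = 6) in the PFC and 28.8% ± 7.78 (n = 6) in the NAc. Fosb made up 3.90% ± 0.905, 19.2% ± 3.75 and 31.9% ± 6.22 in the same order. In the NAc the mean levels of Fos, Fosb and Fosl2, 3.43 ± 1.56, 3.49 ± 0.614 and 4.43 ± 1.43 RPKM (SD, n = 6), overlapped in range. The same order of VTA, PFC and NAc stood at 1 day in the saline shares given above. Among the Jun genes at 28 days, Junb made up 8.54% ± 1.46 in the VTA (n = 5), 32.6% ± 6.13 in the PFC and 39.8% ± 7.20 in the NAc (SD, n = 6).

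In all regions and both treatments, no library of 1 day reached those of 28 days for Junb or Jund. How many of all genes separate the times in this way was not counted. In the saline NAc, Junb was 0.712, 1.87 and 4.22 RPKM at 1 day and 20.03, 29.04 and 37.3 RPKM at 28 days (lowest, median, highest). Jund was 3.26, 4.14 and 4.92 RPKM at 1 day and 29.7, 32.8 and 43.0 RPKM at 28 days. The log2 differences, 28 days minus 1 day, were 3.81 for Junb (SE 0.29; adjusted p = 9.53e-11 by edgeR) and 3.06 for Jund (SE 0.11; adjusted p = 1.21e-16 by edgeR), or 14.02-fold and 8.34-fold.

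Fos, Fosb and Jun were also higher at 28 days, by 1.30 (SE 0.43), 0.67 (SE 0.13) and 1.05 (SE 0.15) on the log2 scale, with adjusted p of 0.0115, 9.86e-05 and 1.19e-06 by edgeR, and Fosl2 was not called (0.17, SE 0.24). Thus 5 of 6 members were called, where 63.2% of all tested genes were called. The same ratio of means stood in the other regions and in cocaine libraries. For Junb it was 13.9 in VTA saline, 16.7 in PFC saline, 10.4 in VTA cocaine, 17.1 in PFC cocaine and 16.5 in NAc cocaine libraries. For Jund it lay between 7.93 and 9.56 over the 3 regions and both treatments. Tables of the VTA and PFC were normalised separately, so these ratios are given as values without a test.

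The differences between the times went with base composition over all genes. Exons of Junb and Jund are 62.65% and 62.68% GC, above 98.8% of the tested genes, and those of Fos and Fosl2 are 51.96% and 51.92%. Over 16591 genes with a GC value, of 16612 tested, Spearman's rho between GC content and the log2 difference was 0.75, a description across genes, which are not independent replicates. The median difference was -0.53 for genes under 40% GC, 0.14 for 50 to 55%, 0.61 for 55 to 60%, 1.21 for 60 to 65% and 2.15 for 65% and above. Fosl2 and Fosb lay between the quartiles of their GC class, and Jun, Fos, Jund and Junb lay above the upper quartile of theirs. Of 614 genes between 60 and 65% GC, 5, Junb included, had a difference at least as large as that of Junb. For Jund the count was 8, with Jund and Junb included. Time point and table cannot be told apart here, so these differences are not read as changes over abstinence. Levels compared between GC-rich and other members also depended on the time point. In the saline NAc, Junb made up 19.0% of the Jun family at 1 day and 39.8% at 28 days, and Jun 39.9% and 11.6%. Whether such comparisons between genes hold within a time point was not tested.

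**Figure D5:**
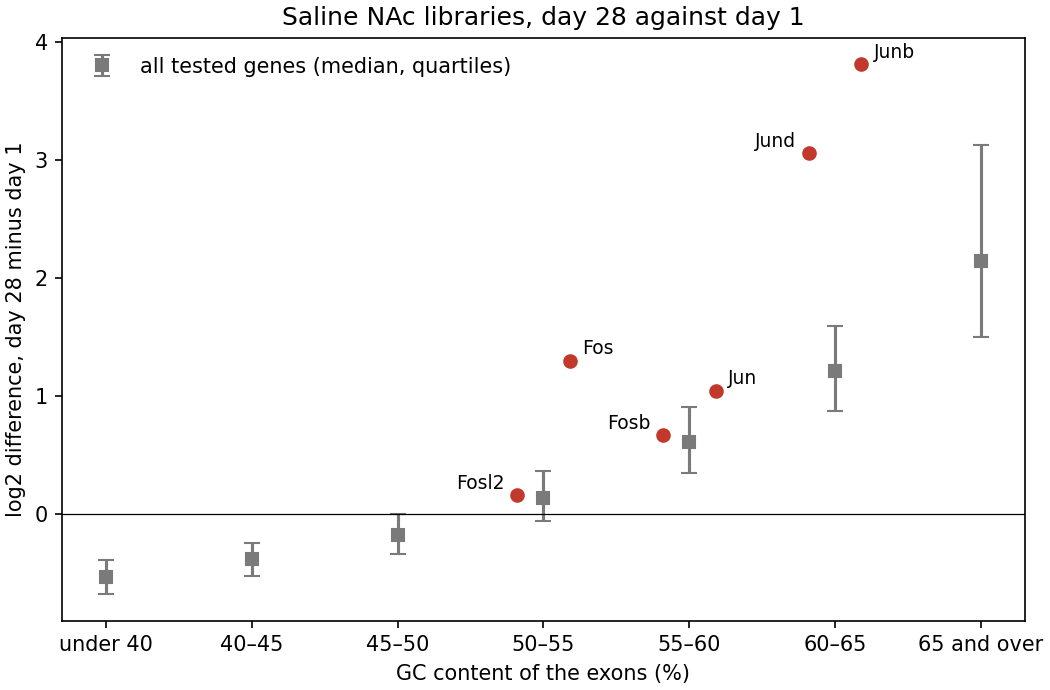
Log2 difference between 28 days and 1 day in saline NAc libraries against the GC content of exons. Grey squares and bars give the median and quartiles of all tested genes in each GC class, rising from -0.53 to 2.15, and red points the 6 members, with Junb at 3.81 and Jund at 3.06 above the upper quartile of 1.59 for their class.

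At 28 days, libraries that carry the same number in different regions held related Fos and Fosb levels. Whether a number stands for 1 mouse is not given in the labels. After removal of group means, r between same-numbered NAc and PFC libraries was 0.89 for Fosb (Spearman's rho 0.83; permutation p = 0.00012 and 0.00058; 0.83 without the 2 libraries farthest from the median) over 12 numbers. For Fos it was 0.83 (rho 0.78; permutation p = 0.00309 and 0.00742; 0.63 without those 2). Between NAc and VTA, over 11 numbers, r was 0.90 for Fosb (rho 0.81; permutation p = 0.00333 and 0.0114) and 0.73 for Fos (rho 0.69; permutation p = 0.00959 and 0.0184). For Fosl2 r was 0.68 between NAc and PFC but 0.31 between NAc and VTA (permutation p = 0.0267 and 0.374). Cocaine library 6 had the highest Fos level of the cocaine libraries in all 3 regions, 13.1, 6.60 and 22.0 RPKM in the NAc, VTA and PFC. All 18 correlations at 28 days, for 6 genes and 3 pairs of regions, were above 0. Whole libraries were also correlated across all genes tested in both regions. By that measure, the median r of same-numbered libraries was 0.07 to 0.13 at 28 days, against -0.03 to -0.01 for libraries of other numbers in the same group. It runs over genes and not over libraries, so it is no background for the r of single genes. How high r lies for other single genes was not computed.

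At 1 day, 7 of the 18 correlations were above 0. The highest was that of Fosl2 between NAc and VTA, at 0.69 (rho 0.71; permutation p = 0.00878 and 0.00762; 0.57 without the 2 farthest libraries). For Fos, r was -0.20 between NAc and PFC, 0.41 between NAc and VTA and -0.71 between PFC and VTA (permutation p = 0.666, 0.388 and 0.0644). Spearman's rho of Fos was 0.02, 0.19 and -0.84 in that order (permutation p = 0.964, 0.628 and 0.0134). For Fosb, r was 0.09, -0.35 and -0.67 (permutation p = 0.798, 0.297 and 0.0257), and rho was 0.09, -0.29 and -0.72 (permutation p = 0.802, 0.394 and 0.0168). Of the 36 Pearson correlations at both times, whose p-values are not adjusted, 9 had a permutation p under 0.05, and 25 were above 0.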

How the data were processed

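Libraries were sequenced on an Illumina HiSeq, and the authors aligned reads with STAR 2.4.1d to mm9 with the Ensembl annotation. The authors deposited raw counts of reads per gene for 4 tables and RPKM values for the VTA and PFC at 1 day. The counting tool and strand are not given in the sources used here. A further 30 columns of other libraries, and the authors' fold changes and p-values of their comparisons, were not used. At 28 days, column names give the group and a number but not the labelled sample. Whole reads were recovered from RPKM steps for 100% of genes with reads, within 0.001 reads, and were used as an alternative.

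Counts were tested with edgeR 4.0.16 (R 4.3.3; filterByExpr with a minimum count of 10, TMM, quasi-likelihood, standard errors from the F statistic) within each table, across both times in the NAc, and across regions at 28 days. For the RPKM tables, limma 3.58.1 was run on log2(RPKM + 0.1), for genes averaging 0.5 RPKM or more. Exact permutation tests were two-sided on log2(CPM + 0.5) or log2(RPKM + 0.1), and correlations used 100000 permutations within groups. Depth was 20971967 to 49700932 reads per library. Scripts were tested on simulated data. Alternatives were DESeq2 1.42.0, its size factors, no filter, a pseudocount of 1, recovered reads, the replicate block, a looser threshold and leaving out each library.

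The members and lists were chosen with earlier results of these data known. The text names the 6 members and, from each list, the genes called and those with the smallest p in a table. It also names the 5 genes most like Fos or 3 most like another member, among genes tested in all 6 tables. Same-numbered cocaine and saline libraries at 1 day had correlations of deviations from -0.47 to 0.60 in the NAc, so the numbers were not taken as pairs.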

Additional observations from a re-analysis of the deposited data

Results flagged for a closer look

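Each of 72 groups, 6 members in 12 groups of libraries, was checked for a highest or lowest library far from its nearest neighbour by Dixon's criterion. 5 were past it, and chance flags about 1 in 20. In cocaine NAc at 1 day, library 6 was the highest for Fos (5.59 RPKM, the next at 2.75), Fosl2 (9.17 RPKM, the next at 5.83) and Jun (5.82 RPKM, the next at 4.35). In the same group, library 5 was the highest for Junb, at 2.89 RPKM with the next at 1.86. In cocaine PFC at 28 days, library 3 was the highest for Jund, at 43.7 RPKM with the next at 34.4.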

How the results depend on the processing

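No call of a member between cocaine and saline appeared under DESeq2, DESeq2's size factors, no filter, another pseudocount, recovered reads or any single library left out, and Fos kept its direction at 1 day in all 3 regions. With adjusted p under 0.25, 1 member, Fosl2, was called in the VTA at 1 day in the limma fit, where 1269 of 15042 tested genes were. Fos was also under that threshold in the NAc at 1 day by DESeq2 (0.155), as were 57 of 15878 genes. In the VTA at 1 day it was under it with recovered reads (0.159) and the replicate block (0.222). There 2122 of 16132 and 2024 of 15042 tested genes were under it in that order. Between NAc and PFC, 1 member was called without the filter on low counts, where Fos missed the threshold, and 1 to 2 with a library left out. Between PFC and VTA, 5 members were called in saline libraries of 1 day. The main fit at 28 days called 57.8% of all tested genes between these regions, and the share in the 1-day fit is not given here. With the replicate block at 1 day, 0 members were called in any region, and Junb in the NAc turned to 0.014. Same-numbered libraries of that day correlated best with each other for 2, 2 and 0 of 6 numbers in the NAc, VTA and PFC, and the column numbers of 28 days could not be tied to labelled samples, so no block was fitted there between cocaine and saline. Across regions, a block on the column number gave 4, 3 and 3 called members for NAc against VTA, NAc against PFC and PFC against VTA, with Fosb added in the second. Without the block, 62.5%, 40.7% and 57.8% of all tested genes were called in that order, and the shares with it are not given here.

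Small differences changed sign. In the VTA at 1 day, Jun turned to -0.043 and Jund to -0.079 with the cortical covariate, and Jund to -0.012 with recovered reads and -0.0078 without cocaine libraries 3 and 6. Between NAc and VTA, Jund turned to 0.032 with all libraries of 28 days, 0.019 with the block and 0.14 at 1 day, and between NAc and PFC, Fosl2 turned to 0.059 at 1 day. With single libraries left out, the log2 difference ran from -0.29 to 0.22 for Junb in the NAc at 1 day, -0.078 to 0.25 for Junb in the NAc at 28 days, -0.023 to 0.054 for Jund in the VTA at 1 day and -0.015 to 0.20 for Fosl2 in the PFC at 1 day. In the VTA at 28 days it ran from -0.47 to 0.043 for Fos, -0.25 to 0.15 for Fosl2, -0.022 to 0.11 for Jun, -0.21 to 0.039 for Junb and -0.31 to 0.059 for Jund. In the PFC at 28 days it ran from -0.090 to 0.044 for Fosl2, -0.0062 to 0.34 for Junb and -0.098 to 0.048 for Jund. The interaction ran from -0.89 to 0.011 for Fos, -0.048 to 0.093 for Fosb and -0.075 to 0.44 for Junb, and the time difference of Fosl2 from -0.0024 to 0.26. Jund ran from -0.16 to 0.20 between NAc and VTA, -0.15 to 0.0067 between NAc and PFC and -0.083 to 0.27 between PFC and VTA. The cause of these shifts was not tested.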
